A study of Mus musculus with 6 samples.

Results

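Transcript levels of 8 genes of the dystrophin complex and of membrane repair (Dmd, Dag1, Sgca, Sgcb, Sgcd, Cav3, Dysf and Trim72) were examined in tibialis anterior, a mixed muscle of the lower leg, of mice. A gene was represented by the probe sets whose only symbol in the platform annotation was its own. All 8 genes were found, each with 1 such probe set, among 19938 genes measured in this way. The 6 arrays comprised 3 from control C57Bl6J mice and 3 from mice labelled MLC-SOCS-3/C57Bl6J. That label names SOCS-3, an intracellular inhibitor of cytokine signalling, and is read here as that of a SOCS-3 transgene. The labels do not spell out MLC, the transgene's promoter, the number of founder lines or the sex of the animals. Both groups were 11 weeks old and had been starved for 6 h when the muscle was taken. The titles number 3 replicates in each group without saying that these were separate animals, so the p-values rest on a spread between samples that may be technical. Below, an array labelled MLC-SOCS-3/C57Bl6J is called an MLC-SOCS-3 array, as a label.

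Dystrophin ties the actin cytoskeleton of the muscle fibre to dystroglycan in the surface membrane, and dystroglycan in turn binds laminin in the basal lamina. The sarcoglycans are membrane proteins that stabilise this link, and loss of dystrophin or of a sarcoglycan causes muscular dystrophy. Tears in the membrane are closed by vesicles: TRIM72 (also called MG53) brings vesicles to the injury, dysferlin takes part in their calcium-dependent fusion, and caveolin-3, the muscle caveolin, binds both proteins.

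Socs3 itself read lower, not higher, on the arrays whose label names SOCS-3. The brighter of its 2 probe sets was at 7.37, 7.41 and 7.43 on control replicates 1, 2 and 3 and at 7.07, 7.12 and 7.25 on the MLC-SOCS-3 arrays, a difference of -0.26 ± 0.07 (SE; limma adjusted p = 0.80, unadjusted p = 0.011). The other differed by -0.22 ± 0.08 (limma adjusted p = 0.82, unadjusted p = 0.030). The groups did not overlap on either probe set, as was so in that direction for 6.76% of all probe sets. These values thus show no rise of Socs3 on the MLC-SOCS-3 arrays, and neither difference passed the test over all probe sets. The labels do not say whether these probes lie within the transgene, so directions below are given for the arrays as labelled.

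The level of Trim72 was lower on every MLC-SOCS-3 array than on the lowest control, and Cav3 was lower by a smaller amount. Neither difference passed the test over all probe sets. Dmd, Dag1, Sgca, Sgcb, Sgcd and Dysf had overlapping groups. Levels are log2 RMA intensities, and a difference is the mean of the MLC-SOCS-3 arrays minus the control mean. The error of a difference is limma's moderated standard error (SE), and p-values were adjusted by the Benjamini-Hochberg method over all 35557 probe sets. At an adjusted p under 0.05 limma called 0 of these (0%). Without adjustment, 2105 (5.92%) had a p under 0.05. Levels of different genes were not compared, because probe sets differ in their response. All 8 genes lay above 5.99, the median probe set.

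The regions before the starts of Trim72 and Cav3 are shown because these were the genes whose groups did not overlap. Each sequence is the 250 bases before a transcript start in RefSeq (GRCm38.p6), on the plus strand, 5′ to 3′. Capitals mark E-boxes (CANNTG), the motif bound by MyoD and other basic helix-loop-helix factors. The Trim72 window is chr7:128004128-128004377, and the gene's span in the RefSeq gene table begins upstream of it. The Cav3 window is chr6:112459255-112459504.
Trim72: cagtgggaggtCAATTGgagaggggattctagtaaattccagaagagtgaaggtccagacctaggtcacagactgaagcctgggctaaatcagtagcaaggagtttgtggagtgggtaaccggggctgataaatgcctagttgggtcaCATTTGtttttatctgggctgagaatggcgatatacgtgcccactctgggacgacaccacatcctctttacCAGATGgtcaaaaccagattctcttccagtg
Cav3: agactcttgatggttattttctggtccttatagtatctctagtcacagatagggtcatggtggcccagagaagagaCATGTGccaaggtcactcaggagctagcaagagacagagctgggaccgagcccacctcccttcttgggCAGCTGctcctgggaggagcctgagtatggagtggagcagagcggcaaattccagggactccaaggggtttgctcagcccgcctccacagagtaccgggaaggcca

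The Trim72 window held 3 E-boxes, whose first bases lie 239, 102 and 31 bases before the start, and the Cav3 window held 2, at 174 and 106 bases. An E-box was found in 7 of the 11 windows of the 8 genes, in none of those of Sgcb and Dysf, and in 66.2% of all 32851 windows of the same length. The motif TTCNNNGAA, to which STAT factors bind, was in 0 of the 11 windows and in 7.02% of all windows. The MEF2 motif was in 1 of the 11, a window of Dmd, and in 2.92% of all. Both strands were searched. In the printed windows the E-box was the only one of the 3 motifs found, so no motifs overlap, and a match describes the sequence without showing that a factor binds there.

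**Figure D1:**
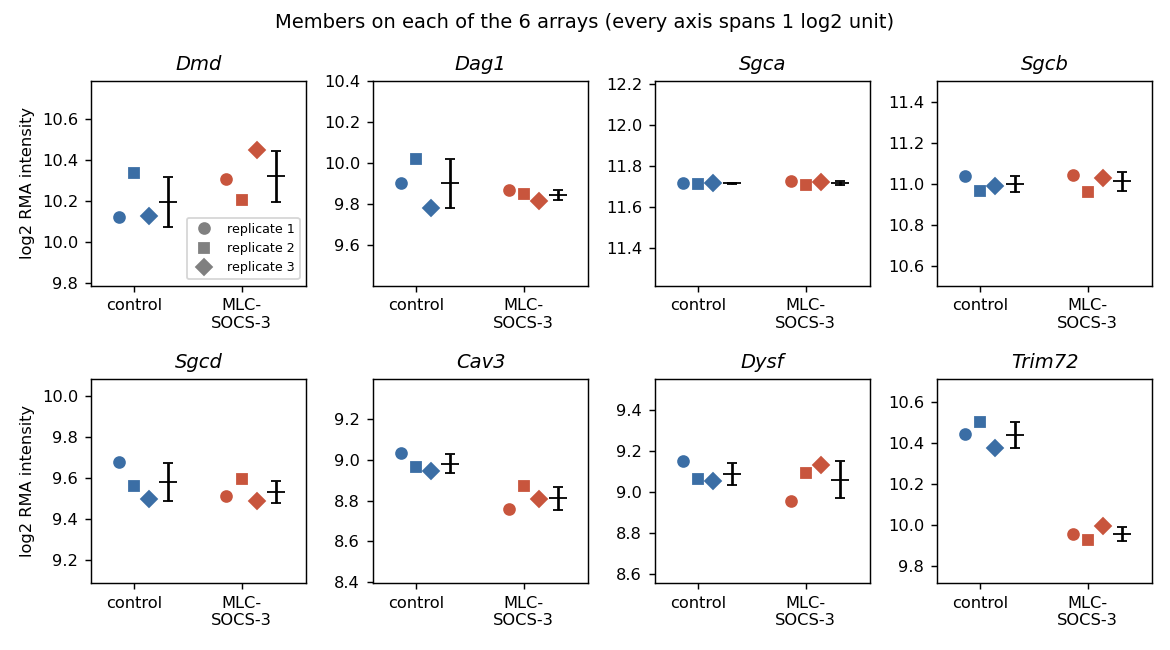
Log2 RMA intensity of the 8 genes on each of the 6 arrays, with replicate numbers as symbols and the mean ± SD (n = 3) of each group as a black bar; every vertical axis spans 1 log2 unit. Trim72 and Cav3 have groups that do not overlap, and the points of Sgca lie within 0.019 of each other.

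Trim72 encodes the muscle TRIM protein that starts the repair of membrane tears. Its level was 10.44, 10.50 and 10.38 on control replicates 1, 2 and 3, and 9.95, 9.93 and 9.99 on the MLC-SOCS-3 arrays. The groups were separated by a gap of 0.38, wider than the range of 0.13 among the controls and of 0.07 among the others. The means were 10.44 ± 0.06 (SD, n = 3) and 9.96 ± 0.03 (SD, n = 3), a difference of -0.48 ± 0.07 (SE, 95% interval -0.64 to -0.32) or a 1.40-fold lower intensity. Limma's adjusted p was 0.61, and the unadjusted p of 0.00031 ranked 18 among 35557 probe sets and 7 among 19938 genes. In a narrower fit over the 21789 probe sets with 1 symbol, with robust moderation and a trend of variance on level, limma called 11 (0.0505%), Trim72 among them (adjusted p = 0.0103). Trim72 was the only one of the 8 genes called in that setting, and no other setting tried called it. With trend and robust moderation over all probe sets, its limma adjusted p was 0.24. Over 1-symbol probe sets with default moderation it was 0.33. With 3 arrays against 3, an exact two-sided permutation test cannot go below 0.10, the value it gave for Trim72 and for Cav3. In whole muscle, fewer cells of a type and less RNA per cell cannot be told apart.

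Cav3 encodes caveolin-3, which shapes the caveolae of the muscle fibre membrane. Its level was 9.03, 8.96 and 8.95 on control replicates 1, 2 and 3, and 8.76, 8.87 and 8.81 on the MLC-SOCS-3 arrays. All 3 of the latter lay below every control, with a gap of 0.08 that was no wider than the range inside either group (0.09 and 0.11). The difference was -0.17 ± 0.07 (SE, 95% interval -0.33 to -0.0093), a 1.12-fold lower intensity, with a limma adjusted p of 0.83 and an unadjusted p of 0.041. With 1 array left out in turn, the unadjusted p was under 0.05 in 1 of the 6 cases, without MLC-SOCS-3 replicate 2 (limma, 0.042).

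Among the 8 genes, 2 had groups that did not overlap, both lower on the MLC-SOCS-3 arrays, and the same 2 had an unadjusted limma p under 0.05. Over all 19938 genes, 12.3% had groups that did not overlap in either direction, and 4.86% had an unadjusted limma p under 0.05. The 8 genes were chosen with earlier results of these data known. Their counts beside these shares are thus a description and not a test. Groups separated with the MLC-SOCS-3 arrays lower were seen for 1548 of the 19938 genes and for 6.76% of all 35557 probe sets. In that lower direction, 3.4% of all probe sets had an unadjusted limma p under 0.05. The 8 differences comprised 5 below and 3 above 0, with a median of -0.04, against a median of -0.016 over all 19938 genes. In simulated arrays over 35557 probe sets, with independent normal noise and 200 changed probe sets above the median level, limma called 86.4% of 2-fold and 30.8% of 1.5-fold changes. The difference of Trim72 was smaller than either. On the real arrays limma called 0 of all probe sets, so Casp12 (-1.14) and Socs2 (-1.15) were not called either. The simulated shares are therefore not the power of these data, and why Trim72 was not called was not tested.

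Dysf encodes dysferlin, a calcium-binding membrane protein of vesicle fusion whose loss causes limb-girdle muscular dystrophy. It was at 9.15, 9.06 and 9.06 on control replicates 1, 2 and 3, and at 8.96, 9.09 and 9.13 on the MLC-SOCS-3 arrays. Replicate 1 of the latter gave the lowest value of the 6, while its replicates 2 and 3 lay within the control range. The difference was -0.03 ± 0.08 (SE), with a limma adjusted p of 0.97 and a 95% interval of -0.21 to 0.16. A fall like that of Trim72 lies outside this interval.

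Dmd encodes dystrophin, and its probe set gives a single value for a gene with many transcripts. The level was 10.12, 10.34 and 10.13 on control replicates 1, 2 and 3, and 10.31, 10.20 and 10.45 on the MLC-SOCS-3 arrays. The highest value was that of MLC-SOCS-3 replicate 3, but control replicate 2 lay above both other arrays of that group. Dmd had the largest positive difference of the 8 genes, 0.12 ± 0.10 (SE, 95% interval -0.12 to 0.37), with a limma adjusted p of 0.87.

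Dag1 encodes dystroglycan, the laminin receptor at the core of the complex. Control replicates 1, 2 and 3 read 9.90, 10.02 and 9.78, and the MLC-SOCS-3 arrays read 9.87, 9.85 and 9.82. These last 3 values spanned 0.05 and lay inside the control range of 0.24. The difference was -0.06 ± 0.08 (SE, 95% interval -0.25 to 0.14; limma adjusted p = 0.92).

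The sarcoglycan genes showed differences close to 0. Sgca, which encodes alpha-sarcoglycan, was at 11.72, 11.71 and 11.72 on the controls and at 11.73, 11.71 and 11.72 on the MLC-SOCS-3 arrays. Its range over the 6 arrays, 0.019, was the second smallest among the 11409 genes above the median level, whose median range was 0.25. The difference was 0.0021 ± 0.06 (SE, 95% interval -0.14 to 0.14; limma adjusted p = 0.997). The interval is wide beside the range because limma draws each gene's variance towards that of all probe sets.

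Sgcb, which encodes beta-sarcoglycan, read 11.04, 10.96 and 10.99 on control replicates 1, 2 and 3 and 11.04, 10.96 and 11.03 on the MLC-SOCS-3 arrays. The lowest array was MLC-SOCS-3 replicate 2, as for Sgca, and the range of 0.09 ranked 350 of 11409 from the smallest. The difference was 0.01 ± 0.06 (SE, 95% interval -0.14 to 0.17; limma adjusted p = 0.98). Sgcd, which encodes delta-sarcoglycan, read 9.68, 9.56 and 9.50 on the controls and 9.51, 9.59 and 9.49 on the MLC-SOCS-3 arrays. Control replicate 1 stood highest, and the other 5 arrays lay within the range of 9.49 to 9.59. The difference was -0.05 ± 0.08 (SE, 95% interval -0.23 to 0.14; limma adjusted p = 0.94). Its range ranked 3553 of 11409, and those of the other genes ranked 3683 (Dysf), 5389 (Dag1), 6495 (Cav3), 8015 (Dmd) and 10757 (Trim72).

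**Figure D2:**
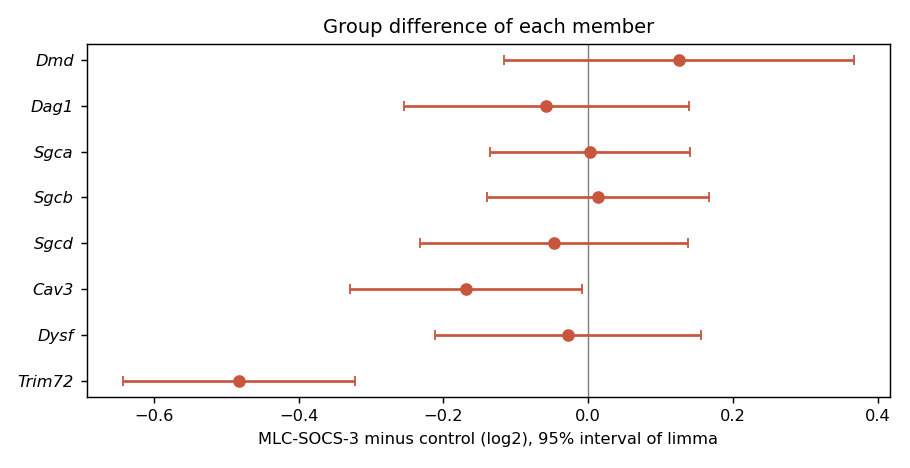
Difference of each gene between the MLC-SOCS-3 arrays and the controls (log2), with limma's 95% interval as a bar. The unadjusted intervals of Trim72 and Cav3 lie below 0 and the other 6 include 0.

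The gene lists around these 8 genes comprised 86 genes in 6 lists, of which 78 were measured. In limma's test over all probe sets, 0 of the 78 rose and 0 fell. An unadjusted p under 0.05 was seen for 1 of them, Dtnb. Groups that did not overlap were seen for 5 lower and 6 higher genes, beside 12.3% of all genes in either direction. The median difference of the 78 was 0.0066. The lists, too, were chosen with earlier results of these data known.

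Of the rest of the dystrophin complex, 13 of 15 listed genes were measured, with a median difference of 0.04, 8 positive and 5 negative. Dtnb, which encodes beta-dystrobrevin, a dystrophin-related cytoplasmic protein, differed by -0.24 ± 0.10 (SE), with a limma adjusted p of 0.83. Sgce, the epsilon-sarcoglycan gene, differed by 0.16 ± 0.08 and Sgcz, the zeta-sarcoglycan gene, by -0.11 ± 0.07. Utrn, whose product utrophin is the close relative of dystrophin, differed by 0.09 ± 0.07. These last 3 genes had limma adjusted p-values between 0.86 and 0.87.

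Dystroglycan must be glycosylated to bind laminin, and 14 of 18 listed genes of this pathway were measured. Of these, 10 were positive and 4 negative, with a median of 0.04 and no difference beyond 0.10 in either direction. Dpm1 (0.06 ± 0.06, SE), B4gat1 (0.08 ± 0.08), Pomt2 (0.07 ± 0.07) and Dolk (0.07 ± 0.08) had the smallest p-values of the list. Dpm1 and Dolk act in the supply of dolichol-linked mannose, Pomt2 adds the first mannose, and B4gat1 acts in building the laminin-binding chain. Limma's smallest adjusted p in this list was 0.89.

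Other genes of membrane repair were measured for 23 of 25 listed, 12 positive and 11 negative, with a median of 0.0016. Anxa1, which encodes annexin A1, a calcium-dependent membrane-binding protein, differed by 0.24 ± 0.13 (SE). Anxa4 and Anxa6, other annexin genes, differed by -0.10 ± 0.06 and -0.11 ± 0.07. Chmp4b, a subunit of the ESCRT-III complex that sheds damaged membrane, differed by -0.09 ± 0.06. No gene of this list passed the test (smallest limma adjusted p 0.86).

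All 7 listed caveola genes other than Cav3 were measured, 5 of them positive, with a median of 0.05. Cavin3, a caveola coat protein gene, was at 8.15 to 8.16 on the controls and at 8.25, 8.26 and 8.33 on the MLC-SOCS-3 arrays, a difference of 0.12 ± 0.06 (SE; limma adjusted p = 0.84). Its groups did not overlap, in the direction opposite to Cav3. The muscle cavin gene Cavin4 differed by 0.06 ± 0.08, Cavin1 by 0.05 ± 0.07 and Cav1, the caveolin of endothelial and other cells, by 0.04 ± 0.08.

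The costamere genes, which link the Z disc to the membrane through integrins, were measured for 14 of 14, with 6 positive and 8 negative and a median of -0.0087. Tln2, a talin gene, differed by -0.09 ± 0.07 (SE), Parva by -0.07 ± 0.07, Itga7, the laminin-binding integrin of muscle, by -0.06 ± 0.06, and Flnc, muscle filamin, by 0.23 ± 0.22. Among the 7 relatives of Trim72 and Dysf by family, differences lay between -0.09 (Trim55, a sarcomeric TRIM protein) and 0.01. The ferlin genes in this list, Otof (-0.03 ± 0.08), Fer1l5 (-0.012 ± 0.10) and Fer1l6 (-0.0065 ± 0.06), were near 0, and all 3 lay below the median probe set. Limma's smallest adjusted p was 0.87 in both lists. Myof, a ferlin gene counted above among the genes of membrane repair, lay above the median probe set and differed by 0.14 ± 0.15 (SE, limma adjusted p = 0.91).

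**Figure D3:**
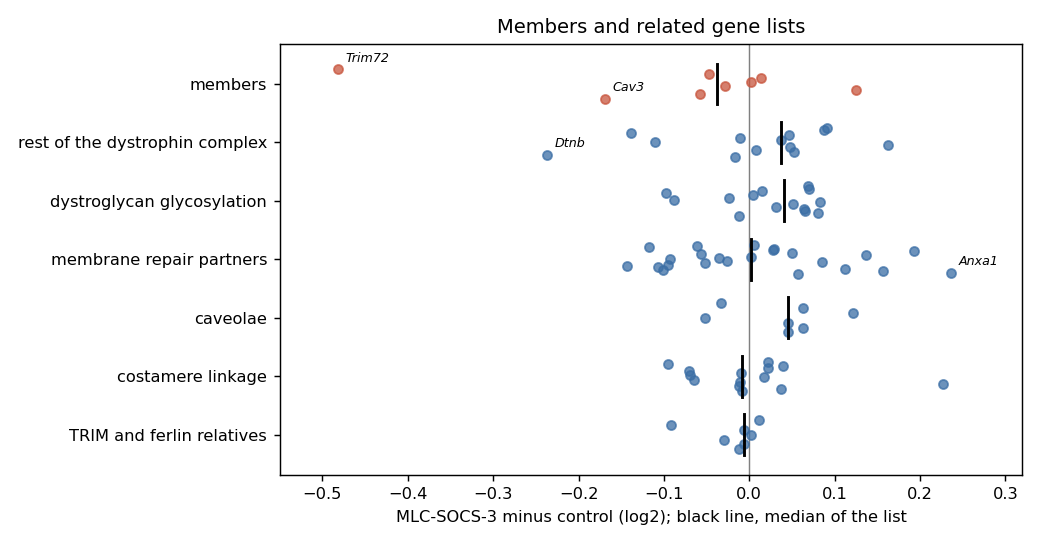
Difference between the MLC-SOCS-3 arrays and the controls (log2) for the 8 genes (orange) and for the measured genes of 6 related lists (blue), 1 point per gene, with each list's median as a black line. Trim72, at -0.48, lies outside the range of all 6 related lists (-0.24 to 0.24).

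Position on the chromosome was examined for the 5 nearest measured genes on each side of each gene. Around Trim72, on chromosome 7, these were Bckdk, Kat8, Prss8, Prss36 and Pycard on one side and Itgam, Itgax, Itgad, Cox6a2 and 9130023H24Rik on the other. Itgam, the next measured gene, encodes an integrin subunit of myeloid cells and differed in the opposite direction. It was at 4.88, 5.17 and 5.14 on control replicates 1, 2 and 3, and at 5.53, 5.76 and 5.61 on the MLC-SOCS-3 arrays, all below the median probe set. The groups did not overlap, and the difference was 0.57 ± 0.11 (SE; limma adjusted p = 0.73, unadjusted p = 0.0018).

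On the other side of Trim72, Pycard, an inflammasome adaptor gene, differed by -0.13 ± 0.08 (SE) and the protease gene Prss36 by -0.27 ± 0.08, with limma adjusted p-values of 0.86 and 0.80. Both had groups that did not overlap. Prss8 differed by -0.12 ± 0.14, Kat8 by 0.07 ± 0.09 and Bckdk by 0.05 ± 0.07. Beyond Itgam, the integrin genes Itgax and Itgad differed by -0.03 ± 0.12 and -0.02 ± 0.09, Cox6a2, a muscle subunit of cytochrome oxidase, by -0.05 ± 0.07 and 9130023H24Rik by -0.12 ± 0.12. The separated values were thus those of Trim72, Itgam, Pycard and Prss36, with Itgam alone higher. Groups did not overlap for 3 of the 10 neighbours of Trim72. Over the neighbours of all 8 genes this held for 9 of 80, beside 12.3% of all genes in either direction. An unadjusted limma p under 0.05 was seen for 5 of the 80, beside 4.86% of all genes. The smallest p of the 80 was that of Gm11541, near Sgca on chromosome 11, at -0.44 ± 0.07 (SE; limma adjusted p = 0.73, unadjusted p = 0.0010). It was at 4.80, 4.96 and 4.81 on control replicates 1, 2 and 3 and at 4.48, 4.38 and 4.39 on the MLC-SOCS-3 arrays, all below the median probe set, and the groups did not overlap.

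**Figure D4:**
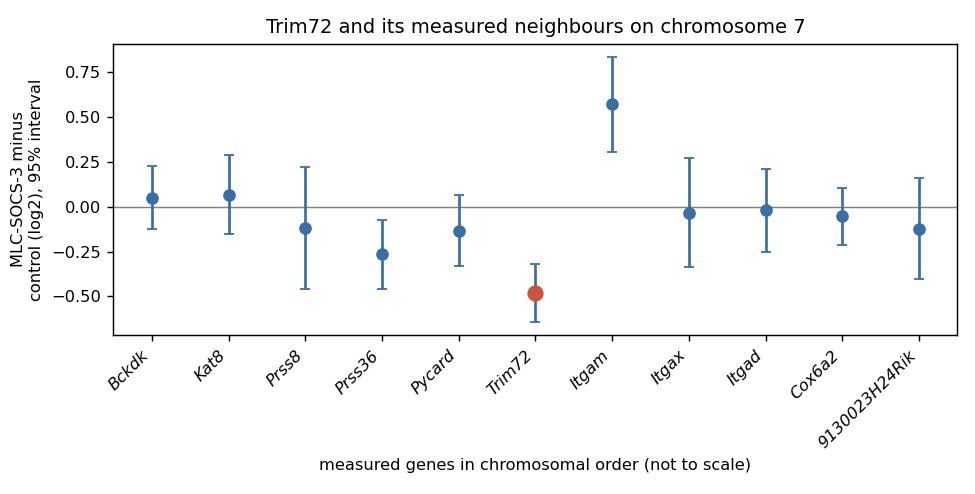
Difference (log2) of Trim72 (orange) and of its 5 nearest measured genes on each side, in chromosomal order and not to scale, with limma's 95% intervals. Trim72 at -0.48 and the adjacent Itgam at 0.57 lie on opposite sides of 0.

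Trim72 varied most of the 8 genes over the 6 arrays (SD 0.27). The genes with the most similar profile were sought among the other 11408 genes above the median level, by the root mean square distance between profiles after each gene's mean over the 6 arrays was subtracted. They were Exoc7 (distance 0.067), Cdk19 (0.085), Slc25a3 (0.087), Cilp2 (0.087) and Tnfsf11 (0.097). Exoc7 encodes a subunit of the exocyst, which tethers secretory vesicles, and was at 9.05, 9.11 and 9.05 on control replicates 1, 2 and 3 and at 8.72, 8.70 and 8.70 on the MLC-SOCS-3 arrays. Differences of the 5 genes lay between -0.56 (Slc25a3, the mitochondrial phosphate carrier) and -0.35, which follows from the choice.

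The tissue label was checked against markers. The 6 myofibre markers, Ckm, Acta1, Myh4, Myh1, Tnnt3 and Mb, lay between 13.7 and 14.6 on every array. Their mean level was 14.17 to 14.19 on the controls and 14.17 to 14.20 on the MLC-SOCS-3 arrays, and their differences lay between -0.015 and 0.06. These levels are near the highest value on the arrays (15.1), where RMA compresses folds. The small differences therefore do not show that the myofibre content was equal. Of the markers of other cells, the adipocyte list alone had a mean that separated the groups, in the direction opposite to Trim72 and Cav3. All 5 of its genes were positive, and its mean was 6.50 to 6.63 on the controls and 6.77 to 6.93 on the MLC-SOCS-3 arrays. By their mean over the 6 arrays, 3 of the 5 lay below the median probe set, Adipoq among them. The adipokine gene Adipoq had the smallest p (0.64 ± 0.10, SE; limma adjusted p = 0.69). The macrophage list (6 of 6 positive; control means 6.76 to 7.02, MLC-SOCS-3 means 6.92 to 7.32) holds Itgam, and that group's overlap came from its replicate 1. Fibroblast markers (6 of 6 positive; 10.29 to 10.37 against 10.32 to 10.68; smallest p, Pdgfra, 0.16 ± 0.07) and tendon markers (4 of 5 negative; 8.004 to 8.24 against 7.94 to 8.01; smallest p, Mkx, -0.35 ± 0.07) overlapped. So did endothelial markers (3 of 4 negative; Pecam1, 0.14 ± 0.07), smooth muscle and pericyte markers (3 of 4 positive; Myh11, 0.16 ± 0.09) and the 2 measured of 5 Schwann cell markers (both negative; Mbp, -0.13 ± 0.10). RMA gives no value of 0, so absence cannot be read from these levels, and the part of these cells in the results was not tested.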

How the data were processed

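RNA of 6 tibialis anterior samples was hybridised to 1 Affymetrix array each, from 300 ng of total RNA. Per the submitters' processing notes, the authors used Affymetrix Expression Console and RMA, whose versions the labels leave out, and the deposited values are log2 intensities, 1 per probe set. RMA corrects background, normalizes between arrays and summarises probes, and it compresses folds of weak and very strong signals. Array medians were 5.98 to 6.04, and no further normalization was applied. All 6 columns were used, and no pair of arrays shared more than 36 of 35557 values.

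The platform annotation lists 23410 probe sets, 21789 with 1 symbol and 1621 with several; only the former name genes. A gene with several probe sets was represented by that with the highest mean. Genes were ordered by the GRCm38.p6 gene table, matched by Entrez identifier.

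Groups were compared with limma 3.58.1 in R 4.3.3 (lmFit, eBayes, two-sided, all 6 arrays), adjusted over all probe sets at a threshold of 0.05. From each list the 4 measured genes with the smallest p were named, from each marker list 1, and the neighbours of Trim72, which had the smallest p. No neighbour of another gene had a p under 0.001; Gm11541 was named after its values were seen. The 8 genes and the lists were chosen with earlier results of these data known. The test was checked on 5 simulations, each with 200 changed probe sets above the median level and at most 8 false calls. The alternatives, 14 settings, were the replicate number as a block, each array left out, median centring, quantile normalization, trend and robust moderation, 1-symbol probe sets with and without these, probe sets above the median and gene means.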

Additional observations from a re-analysis of the deposited data

How the results depend on the processing

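Trim72 and Cav3 stayed lower on the arrays labelled MLC-SOCS-3 in all 14 alternative settings, from -0.51 to -0.45 for Trim72 and from -0.20 to -0.14 for Cav3, and Dmd stayed positive (0.06 to 0.19). With 1 array left out, the differences of the other 5 genes crossed 0: Dag1 -0.12 to 0.0020, Sgca -0.0013 to 0.0081, Sgcb -0.0035 to 0.040, Sgcd -0.088 to 0.0036 and Dysf -0.064 to 0.024. No probe set passed limma's test over all probe sets in the main setting. Leaving out 1 array gave 0 to 1 calls (1 without control replicate 2), testing 1-symbol probe sets gave 1 (Casp12), and the mean of a gene's probe sets gave 1. Testing 1-symbol probe sets with trend and robust moderation gave 11, of which 1 was among the 8 genes, Trim72; the cause was not tested. No other setting called Trim72. The adjusted p of Trim72 lay between 0.0103 and 0.93 over the 14 settings, and that of Cav3 between 0.71 and 0.98. No gene of the related lists was called in any setting. Same-numbered arrays did not deviate together (correlations of deviations -0.03, -0.02 and -0.04). This gave no sign that the numbers pair the samples, but values normalized between arrays cannot exclude a pairing. With the replicate block, limma called 0 probe sets and 2033 had an unadjusted p under 0.05, against 2105 without it.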
